A study of Mus musculus with 6 samples.

Results

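The TGF-β ligands, receptors and SMADs were described as 10 genes in mouse BMSCs treated with retinoic acid (RA), found by their symbols among the 25722 genes of the count tables. They are the ligands Tgfb1, Tgfb2 and Tgfb3, the latent ligand binder Ltbp1, the receptors Tgfbr1, Tgfbr2 and Tgfbr3, the intracellular transducer Smad3, the inhibitor Smad7, and Tgfbi, a matrix protein gene named for its induction by TGF-β. All 10 were found and all 10 passed the filter on low counts. The libraries came from C57BL/6 BM-MSCs, the adherent cells grown from tibia and femur marrow. There were 3 libraries treated with the solvent DMSO and 3 treated with ATRA, the all-trans form of RA, and the medium of both groups held serum and a ROCK inhibitor. SE below is the standard error of a log2 fold change. The sample labels give 1 μM for 48 h, whereas the methods of the study give 100 nM, for 24 h where the RNA-seq samples are described and for 6 h in the section on RNA isolation. The sample labels also mention 2 biological replicates, while each group here has 3 libraries. A figure legend of the study that includes its RNA-seq panels speaks of independent experiments, without tying libraries to cultures, so the p-values measure the spread between these libraries, which may be technical.

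TGF-β is secreted in a latent complex, in which the mature ligand is held by its propeptide and a latent TGF-β binding protein and has to be released before it can act. The released ligand binds the type II receptor, which activates the type I receptor, and this phosphorylates Smad2 and Smad3, which enter the nucleus with Smad4. In marrow stromal cells the pathway is known for matrix production and for restraining blood-forming cells, and macrophages are a known source of the ligand.

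The libraries held between 14737636 and 18511905 counts, and the 10 genes between 196 (Ltbp1) and 7875 (Tgfb1) counts in a library, so that counting error was small. Levels are given as CPM, the count scaled to a common library size after TMM normalisation, which corrects for differences in library composition. Cyp26b1, an RA-degrading enzyme, had CPM of 4.97, 5.96 and 4.68 in DMSO and 124, 110 and 87.1 in RA replicates 1 to 3, and Rarb, an RA receptor gene that RA induces, stood at or below 0.691 CPM in DMSO and at or above 4.50 in RA. Dhrs3, a retinaldehyde reductase gene that RA also induces, overlapped between the groups, with 148, 103 and 160 CPM in DMSO and 136, 161 and 217 in RA (log2 fold change 0.32, edgeR, adjusted p = 0.799). Rarb was not called in the pooled comparison either (log2 fold change 3.90, edgeR, adjusted p = 0.156), while Cyp26b1 was (4.35, edgeR, adjusted p = 0.00207). Rarb was called by DESeq2 (adjusted p = 1.46e-09) and when library set, defined next, was in the edgeR fit (adjusted p = 0.00387). In that fit Dhrs3 had 0.51 on the log2 scale (edgeR, adjusted p = 0.0442), below 1.5-fold, with 0.52 and 0.49 within the sets. The first principal component of the other genes, with 57.2% of the variance, did not follow the treatment. It parted DMSO 2, RA 1 and RA 2 (library set 1) from DMSO 1, DMSO 3 and RA 3 (library set 2). The sources used here give no batch for these sets, and each holds a single library of one treatment. The 14 macrophage markers summed to between 20367 and 23007 CPM in a library, with a median no lower than the 98.6 percentile of all tested genes, while the 9 tested of 12 mesenchymal stromal markers had a median at or over the 52.2 percentile and all 12 summed to between 801 and 1325 CPM. Among these Cxcl12 (368 to 578 CPM), Spp1 (248 to 440), Pdgfrb (60.3 to 140) and Prrx1 (43.1 to 104) were clearly detected, and Thy1, Nt5e and Cspg4 did not pass the filter, at or below 0.490, 1.12 and 1.05 CPM. The libraries labelled BM-MSCs thus held both stromal and strong macrophage expression, and the levels below are those of the whole culture. In such bulk samples, fewer cells of a type and less RNA per cell cannot be told apart.

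Upstream sequence is shown for 3 of the genes, the most abundant one (Tgfb1), the one that varied most between libraries (Tgfbi) and the only one whose treatment groups did not overlap (Smad3), from RefSeq on GRCm38.p6. Capitals mark the GC box, GGGCGG on either strand. Each runs 5′ to 3′ on the strand of the gene and ends just before the annotated start of the gene: chr7:25686752-25687001 on the plus strand for Tgfb1, chr13:56609336-56609522 on the plus strand for Tgfbi, and chr9:63757995-63758244 on the minus strand for Smad3.
Tgfb1: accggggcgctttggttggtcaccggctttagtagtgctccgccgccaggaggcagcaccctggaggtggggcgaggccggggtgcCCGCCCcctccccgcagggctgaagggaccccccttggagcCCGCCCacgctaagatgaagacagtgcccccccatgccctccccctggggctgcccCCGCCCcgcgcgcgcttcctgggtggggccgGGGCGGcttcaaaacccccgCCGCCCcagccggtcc
Tgfbi: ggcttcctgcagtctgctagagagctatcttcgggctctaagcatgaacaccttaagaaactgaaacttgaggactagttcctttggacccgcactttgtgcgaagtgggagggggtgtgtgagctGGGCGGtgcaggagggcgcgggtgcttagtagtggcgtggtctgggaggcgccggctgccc
Smad3: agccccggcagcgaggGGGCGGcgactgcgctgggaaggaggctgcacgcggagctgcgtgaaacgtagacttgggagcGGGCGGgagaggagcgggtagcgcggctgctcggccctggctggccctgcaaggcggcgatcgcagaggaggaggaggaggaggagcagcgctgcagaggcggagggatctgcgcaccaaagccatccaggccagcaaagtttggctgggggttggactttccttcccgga

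Promoter windows of 300 bases were held for 7 of the 10 genes, as 9 windows. The GC box stood in 4 of the 9, the first windows of Tgfb1, Tgfbr1, Tgfbi and Smad3, against 35.7% of all 32851 windows. Tgfb1 had 6 such boxes in its window. The SMAD box CAGACA stood in 3 of the 9 windows, those of Tgfb2, the second start of Tgfbr1 and the second start of Ltbp1, against 21.0% of all windows. The half-site AGGTCA of nuclear receptors, which RA receptors bind in pairs, and the AP-1 site TGAGTCA stood in 0 of the 9, against 16.3% and 5.20% of all windows. None of these motifs contains another, and a match or its absence describes these windows only.

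By mean level per length of exon, Tgfb1 was first of the 10 genes and Ltbp1 last, although Tgfb1 stood above Tgfbi in 5 of the 6 libraries only. Over the 6 libraries Tgfb1 had 88.6 ± 12.0 CPM per kb of exon (SD, n = 6), Tgfbi 40.1 ± 26.6, Tgfbr2 35.0 ± 9.93, Smad3 15.5 ± 2.70, Tgfbr1 15.2 ± 3.25, Tgfb3 14.4 ± 4.42, Tgfbr3 5.34 ± 2.11, Smad7 4.6 ± 1.44, Tgfb2 4.17 ± 1.61 and Ltbp1 1.87 ± 0.489. The only neighbours in this order whose ranges over libraries did not overlap were Tgfbr2 and Smad3. Tgfb3 was above Tgfbr3, and Tgfb2 above Ltbp1, in each of the 6 libraries although their ranges overlapped. By contrast, Smad3, Tgfbr1 and Tgfb3 did not differ beyond their spread. Tgfb1 made up between 75.0% (DMSO 2) and 90.0% (RA 3) of the summed ligand level per length, Tgfb3 between 7.63% and 19.1%, and Tgfb2 between 2.38% and 5.87%. The type II receptor gene stood above the type I receptor gene in every library, by 1.95 to 2.60 times per length.

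**Figure D1:**
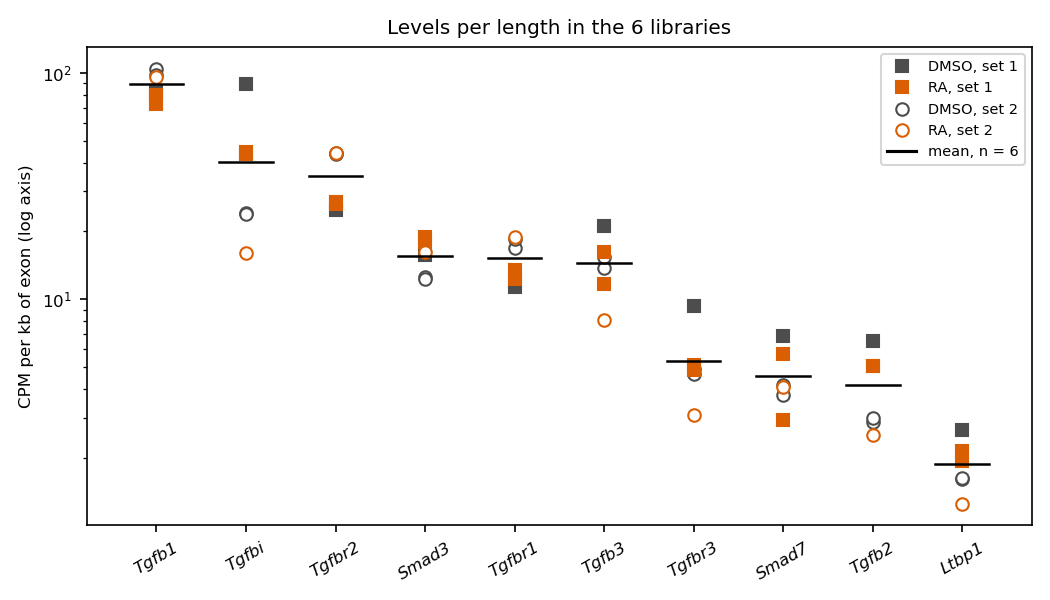
Level of each of the 10 genes in CPM per kb of exon (log axis), in order of the mean, with DMSO in grey, RA in orange, squares for library set 1, open circles for set 2 and a line at the mean of 6 libraries. Tgfb1 leads at 88.6 and Ltbp1 is last at 1.87, and Tgfbi spans the widest range, from 16.0 to 89.0.

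RA against DMSO asks whether RA alters expression of the pathway. Between the 3 RA and the 3 DMSO libraries, 0 of the 10 genes were differentially expressed at an adjusted p under 0.05 and at least 1.5-fold in edgeR's quasi-likelihood test, a rule that called 0.0433% of the 13842 tested genes. Smad3 was the only gene of the 10 with an unadjusted p under 0.05, against 5.25% of all tested genes, and DESeq2 called 0 of the 10, against 0.983% of the 13831 genes to which it gave an adjusted p. Of the 10 log2 fold changes 8 were below 0 and 2 above, against 52.7% of all tested genes below 0. Their median was -0.20, where the median of all tested genes was -0.02. Without DMSO 2 the median of the 10 was -0.01, with 5 below 0 and 5 above. In 1 gene of the 10, again Smad3, the RA libraries did not overlap the DMSO libraries, while 12.6% of all tested genes showed such a separation. Gene positions below are from GENCODE M21 on GRCm38. Since the library sets differ widely, the values within each set are given beside the pooled ones.

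Tgfb1 (ENSMUSG00000002603, chr7:25687002-25705077, plus strand), the main ligand gene of immune and stromal cells, had 524, 419 and 490 CPM in DMSO replicates 1 to 3 and 365, 403 and 480 in RA replicates 1 to 3. The groups overlapped, with the set 2 libraries highest in either group. Its log2 fold change was -0.20 (SE 0.16, by edgeR, adjusted p = 0.803), with -0.13 within set 1 and -0.08 within set 2.

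Tgfb3 (ENSMUSG00000021253, chr12:86056745-86079041, minus strand), a ligand gene known from palate and tendon development, had 46.6, 71.5 and 51.8 CPM in DMSO and 54.8, 39.3 and 27.3 in RA replicates 1 to 3. RA 1 lay inside the range of the controls and the other RA libraries below it. The log2 fold change was -0.49 (SE 0.28, by edgeR, adjusted p = 0.795), with -0.27 when DMSO 2 or RA 3 was left out, and within the sets it was -0.62 and -0.85. Of its exon bases 12.42% are shared with 2 genes annotated on the opposite strand, and the strand setting of the counting is not given in the sources used here.

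Tgfb2 (ENSMUSG00000039239, chr1:186622792-186705989, minus strand), the ligand gene that depends most on the coreceptor Tgfbr3, shares 2.14% of its exon bases with an antisense gene. It had 16.6, 37.7 and 17.3 CPM in DMSO and 29.3, 29.5 and 14.6 in RA replicates 1 to 3. These values followed the library set, with 29.3 to 37.7 CPM in set 1 and 14.6 to 17.3 in set 2. The pooled log2 fold change of 0.04 (SE 0.41, by edgeR, adjusted p = 0.986) was -0.35 within set 1 and -0.21 within set 2. Ltbp1 (ENSMUSG00000001870, chr17:75005568-75392512, plus strand), which tethers the latent ligand to the matrix, had 17.2, 28.3 and 17.3 CPM in DMSO and 22.9, 20.7 and 13.4 in RA replicates 1 to 3, a log2 fold change of -0.14 (SE 0.29, by edgeR, adjusted p = 0.906). Ltbp1 also stood higher in set 1, and within the sets its values were -0.38 and -0.37.

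The signalling receptors were not called, and their values overlapped between the treatments. Tgfbr1 (ENSMUSG00000007613, chr4:47353222-47414931, plus strand), the type I receptor kinase, had 110, 73.6 and 120 CPM in DMSO and 80.4, 87.9 and 123 in RA replicates 1 to 3 (log2 fold change -0.06, SE 0.24, by edgeR, adjusted p = 0.959). Tgfbr2 (ENSMUSG00000032440, chr9:116084293-116175360, minus strand), the type II receptor kinase, had 358, 203 and 361 CPM in DMSO and 220, 215 and 363 in RA (log2 fold change -0.21, SE 0.30, by edgeR, adjusted p = 0.863). Both receptors followed the library set. Tgfbr2 stayed within 203 to 220 CPM in set 1 and 358 to 363 in set 2, and within the sets the log2 fold change was 0.10 and 0.01 for Tgfbr2 and 0.19 and 0.11 for Tgfbr1.

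Tgfbr3 (ENSMUSG00000029287, chr5:107106570-107289629, minus strand) encodes betaglycan, a coreceptor without a kinase that presents ligand to the type II receptor. It had 30.5, 61.3 and 32.3 CPM in DMSO and 31.8, 33.5 and 20.2 in RA replicates 1 to 3. Of its exon bases 4.54% are shared with another gene on the same strand. DMSO 2 stood above all other libraries and RA 3 below them, and the groups overlapped. The pooled log2 fold change was -0.54 (SE 0.33, by edgeR, adjusted p = 0.795), with -0.12 when DMSO 2 was left out, and within the sets it was -0.91 and -0.63.

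Smad3 (ENSMUSG00000032402, chr9:63646767-63757994, minus strand), which carries the signal to the nucleus, had 69.3, 86.6 and 67.7 CPM in DMSO and 104, 99.5 and 89.1 in RA replicates 1 to 3. Every RA library lay above every control, but RA 3 stood close to DMSO 2. Smad3 had a mean of 74.5 ± 10.5 CPM (SD, n = 3) in DMSO and 97.4 ± 7.50 (SD, n = 3) in RA, a log2 fold change of 0.39 (SE 0.14, by edgeR, adjusted p = 0.795). An exact two-sided permutation test gave p = 0.10, the smallest that 3 libraries against 3 allow. Within the sets the log2 fold change was 0.23 and 0.38. With scaling by library size alone the groups overlapped.

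Smad7 (ENSMUSG00000025880, chr18:75367529-75395935, plus strand), the inhibitor that competes for the type I receptor and recruits SMURF ligases, had 19.0, 31.1 and 17.1 CPM in DMSO and 26.0, 13.2 and 18.6 in RA replicates 1 to 3. The highest library was DMSO 2 and the lowest RA 2, and the RA libraries of set 1 were themselves 26.0 and 13.2 CPM. Its log2 fold change was -0.22 (SE 0.32, by edgeR, adjusted p = 0.868), with -0.74 within set 1 and 0.05 within set 2.

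Tgfbi (ENSMUSG00000035493, chr13:56609523-56639562, plus strand), the matrix protein gene, varied most, by 5.55 times between the highest and the lowest library. It had 90.1, 336 and 89.5 CPM in DMSO and 164, 168 and 60.5 in RA replicates 1 to 3. DMSO 2 alone raised the DMSO mean to 172 ± 142 CPM (SD, n = 3), against 131 ± 60.9 (SD, n = 3) in RA. The pooled log2 fold change was -0.39 (SE 0.63, by edgeR, adjusted p = 0.877), and it was 0.56 without DMSO 2. Within the sets it was -1.02 and -0.57. The 3 tested genes outside the pathway lists whose log2 CPM lay nearest to Tgfbi, after centring each gene on its mean over 6 libraries, were Robo2, Spn and BC067074, with root mean square differences of 0.083, 0.132 and 0.15 where the median of all such genes was 0.839. These 3 were picked as the nearest, so their differences fall below that median by the choice itself. Robo2 and BC067074 were low, between 0.546 and 4.15 CPM and between 0.409 and 2.02 CPM, and Spn lay between 29.7 and 157 CPM.

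**Figure D2:**
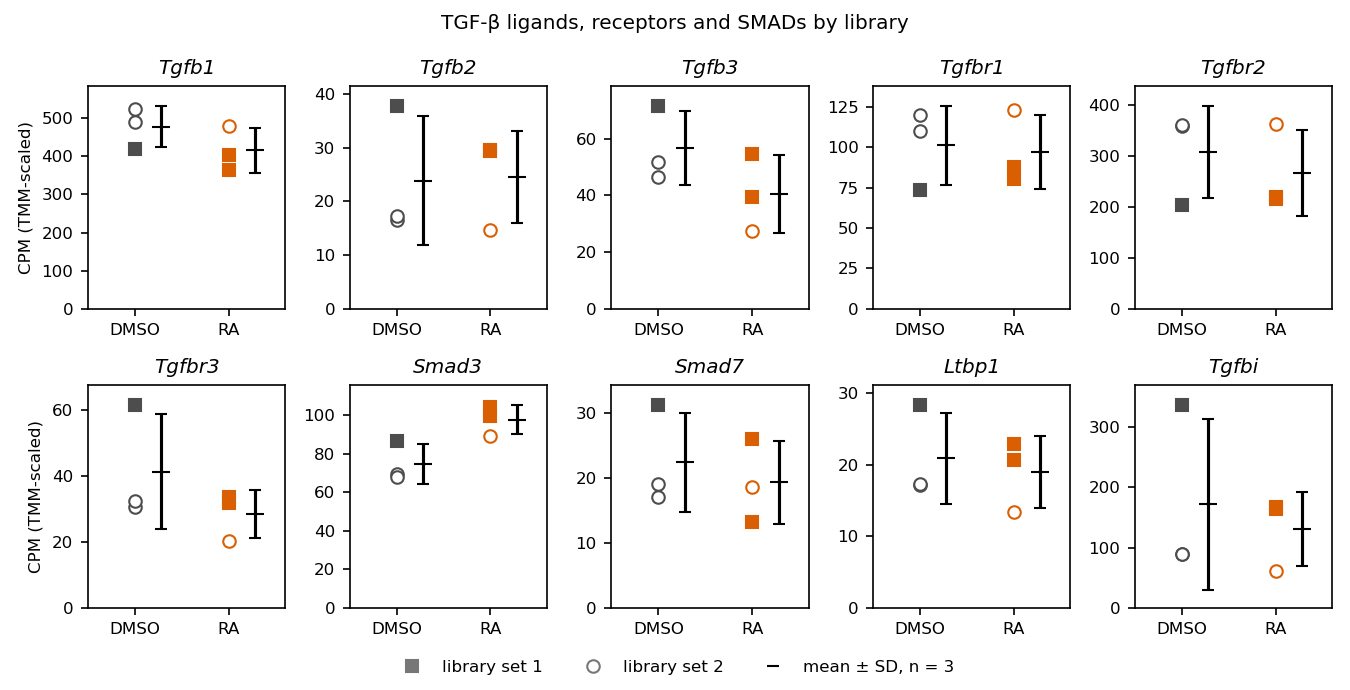
CPM of the 10 genes in each library (DMSO grey, RA orange, squares library set 1, open circles set 2), with the mean ± SD of 3 libraries beside each group, each panel on its own axis from 0. The groups separate for Smad3 and overlap for the other 9 genes, while Tgfb2, Ltbp1, Tgfbi, Tgfb1, Tgfbr1 and Tgfbr2 separate by library set.

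More of these genes separated by library set than by treatment. For 6 of the 10 genes the 3 libraries of one set did not overlap those of the other, against 47.7% of all tested genes. Tgfb2, Ltbp1 and Tgfbi were higher in set 1, and Tgfb1, Tgfbr1 and Tgfbr2 were higher in set 2. For the set 1 libraries Tgfbi ran from 164 to 336 CPM, and for those of set 2 from 60.5 to 90.1. The sets were defined from these libraries, without the 10 genes or the other pathway genes, so these counts carry no test. Cell type markers also separated by set. Pdgfra, Pdgfrb, Prrx1 and Vcam1 were higher in set 1, with Pdgfra at or above 17.6 CPM there and at or below 12.8 in set 2. C1qa, C1qb, C1qc, Mrc1 and Mertk were higher in set 2, but Lyz2 and Fcgr1 in set 1, and Cxcl12, Itgam and Cd14 overlapped. Markers were not removed before the sets were defined, and their part was not tested.

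Within each set, 9 of the 10 genes had all RA libraries on the same side of the controls in both sets, 6 lower and 3 higher, and 42.0% of all tested genes did so, with 23.5% of all tested genes on the lower side. The lower genes were Tgfb1, Tgfb2, Tgfb3, Ltbp1, Tgfbr3 and Tgfbi, and the higher genes were Smad3, Tgfbr1 and Tgfbr2. Smad7 was the exception. Set 1 rests on DMSO 2 as its only control and set 2 on RA 3 as its only RA library.

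In a second fit, called the set-adjusted fit below and chosen after the sets had been seen, library set was a term of the model, and Tgfbi and Tgfbr3 fell with RA and 0 genes rose. This fit called 2 of the 10 genes, against 1.54% of all tested genes in either direction and 0.795% in the lower direction. Tgfbi had a log2 fold change of -0.80 (SE 0.11, by edgeR, adjusted p = 0.0150) and Tgfbr3 of -0.78 (SE 0.10, by edgeR, adjusted p = 0.0158). Tgfb3 had -0.72 (SE 0.15, by edgeR, adjusted p = 0.0677) and did not pass. Smad3 had 0.30 (SE 0.08, by edgeR, adjusted p = 0.140), Ltbp1 -0.37 (SE 0.11, by edgeR, adjusted p = 0.198) and Tgfb2 -0.29 (SE 0.10, by edgeR, adjusted p = 0.273). The other 4 genes lay between -0.32 (Smad7) and 0.15 (Tgfbr1) on the log2 scale. An unadjusted p under 0.05 was reached by 6 of the 10 genes in this fit, against 15.1% of all tested genes. When 1 library was left out of this fit, Tgfbi had an adjusted p under 0.05 in 3 of the 6 fits and Tgfbr3 and Tgfb3 in 2 each, and without DMSO 1, DMSO 2 or DMSO 3 the fit called 0 of the 10. The log2 fold change in those 6 fits stayed between -1.02 and -0.56 for Tgfbi and between -0.91 and -0.62 for Tgfbr3, and between -0.84 and -0.60 for Tgfb3. Without DMSO 2 such a fit compares the treatments in set 2 alone, and without RA 3 in set 1 alone. The macrophage marker sum ran from 20733 to 23007 CPM in DMSO and from 20367 to 21651 in RA. Much of it came from Adgre1 and Lyz2, and the macrophage markers did not move together. Among controls, DMSO 2 had the highest Lyz2 (9779 CPM against 5543 and 6629) and the lowest Mrc1 (105 against 331 and 449). In the set-adjusted fit Mertk, Mrc1 and Itgam had 0.52, 0.43 and 0.19 on the log2 scale. Adgre1, C1qa and Cd14 had -0.13, -0.11 and -0.11, and these genes were not called. The stromal marker sum ran from 801 to 1178 in DMSO and from 1065 to 1325 in RA. Within set 1 the stromal sum was 1178 in DMSO against 1325 and 1229 in RA, and within set 2 it was 801 and 903 against 1065. Much of that sum came from Cxcl12 and Spp1, and Spp1 is also expressed by macrophages. The stromal markers did not move together. Of the 9 tested, the set-adjusted fit called Ly6a lower, at -0.91 on the log2 scale (edgeR, adjusted p = 0.0152), and Lepr higher, at 3.58 (edgeR, adjusted p = 0.00644). Lepr was low, at or below 0.490 CPM in DMSO, with 2.50, 3.04 and 9.48 in RA replicates 1 to 3. Kitl, Prrx1 and Vcam1 had -0.67, -0.42 and -0.29, and Pdgfra, Spp1, Cxcl12 and Pdgfrb had 0.53, 0.43, 0.27 and 0.11, and these 7 were not called. The part of cell makeup in the result was not tested.

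**Figure D3:**
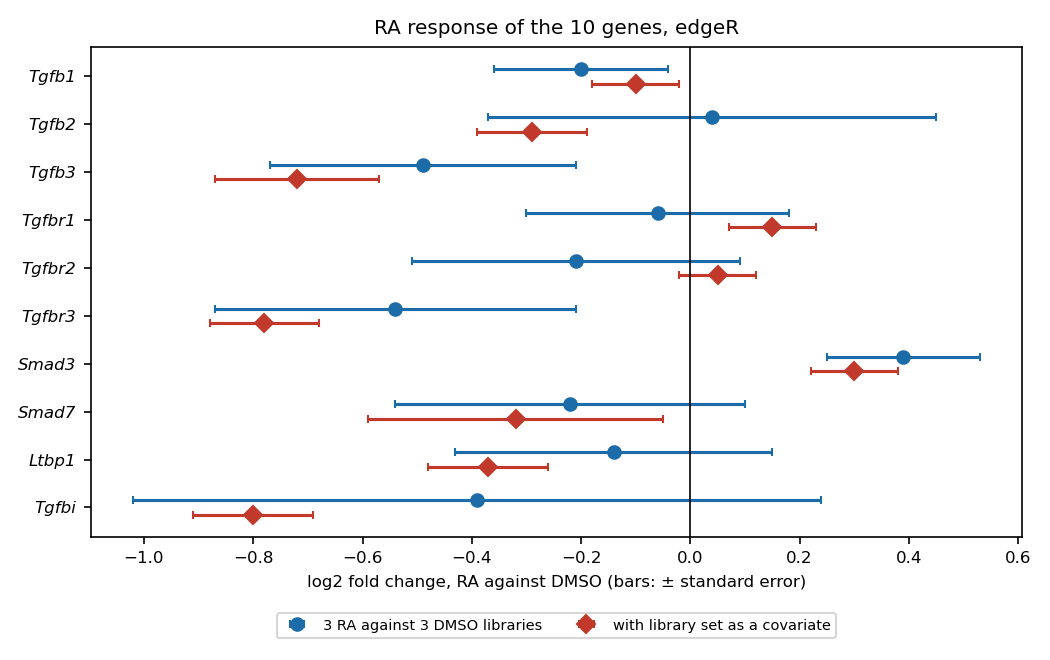
Log2 fold change of RA against DMSO for the 10 genes, with bars of ± 1 standard error, from edgeR over the 3 RA and 3 DMSO libraries (blue circles) and from the set-adjusted fit (red diamonds). Adjustment shortens the bars, moves Tgfbi from -0.39 to -0.80 and Tgfbr3 from -0.54 to -0.78, and leaves Smad3 above 0, at 0.30.

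Of 64 other genes of the pathway, chosen like the 10 genes with earlier results of these data known, in 5 lists by role, 60 passed the filter and 0 were called between the 3 RA and the 3 DMSO libraries (edgeR's quasi-likelihood test), while 8 had an unadjusted p under 0.05, 7 of them lower and 1 higher, against 5.25% of all tested genes. DESeq2 called 1 of the 60, Inhbb, against 0.983% of the genes it tested. The log2 fold change was below 0 in 43 of the 60 genes (71.7%), against 52.7% of all tested genes, and the median was -0.20, against -0.02, but without DMSO 2 the median was -0.023 and 31 of the 60 were below 0. In the set-adjusted fit, 8 of the 60 genes were called, all lower after RA, where 1.54% of all tested genes were called and 0.795% were called lower, and the median was -0.30, against 0.00 for all tested genes. In 39 of the 60 the RA libraries lay below the controls within both sets, and in 4 above them, against 23.5% of all tested genes below and 42.0% on either side. All these counts share the 6 libraries, and leaving out DMSO 1 or DMSO 3 from the set-adjusted fit left 1 called gene (Fbn1), leaving out DMSO 2 or RA 3 left 0, and leaving out RA 1 or RA 2 gave 11.

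The genes listed here as raised by TGF-β had mostly negative log2 fold changes after RA. In the pooled comparison 0 of them were called, against 0.0433% of all tested genes. This list is not complete and leaves out the feedback inhibitors Pmepa1 and Smad7, which are described elsewhere in the text. Pmepa1 had 0.83 pooled and 0.69 in the set-adjusted fit, and Smad7 had -0.22 and -0.32, without a call in either fit. Of 20 such genes 19 were tested, 16 with a log2 fold change below 0 in the pooled comparison and 19 in the set-adjusted fit, and in 18 the RA libraries lay below the controls within both sets, against 23.5% of all tested genes. The median was -0.23 pooled and -0.51 in the set-adjusted fit. The pooled direction rested on single libraries, with a median of 0.19 and 7 of 19 genes below 0 without DMSO 2, and -0.02 and 10 of 19 without RA 3. All 19 stayed below 0 in the set-adjusted fit when any 1 library was left out, with medians from -0.57 to -0.40. That outcome adds little to the within-set values. Without DMSO 2 this fit compares the treatments in set 2 alone, and without RA 3 in set 1 alone. The 3 with the smallest pooled p were Cdkn2b, a cell cycle inhibitor, Snai2, a transcription factor of mesenchymal cells, and the matrix gene Comp, at -0.49, -0.92 and -0.85 (edgeR, adjusted p = 0.776, 0.795 and 0.795). In the set-adjusted fit Snai2 and Itga11, an integrin chain gene that binds collagen, fell by 1.13 and 1.05 on the log2 scale (edgeR, adjusted p = 0.0195 and 0.00858). Itga11 had 111, 322 and 123 CPM in DMSO and 175, 134 and 57.3 in RA replicates 1 to 3, with DMSO 2 far above the rest. Acta2, the smooth muscle actin gene, was not called, at 0.13 pooled and -0.31 in the set-adjusted fit (edgeR, adjusted p = 0.956 and 0.278).

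Among genes of the latent complex and its activation, 11 of 12 were tested, with a pooled median log2 fold change of -0.32, which was -0.07 without DMSO 2. The 3 with the smallest p were Ltbp4, a latent TGF-β binding protein, Itgb8, an integrin chain that activates the ligand, and Furin, which cleaves its propeptide, whose log2 fold changes were -1.22, -1.15 and -0.32 (edgeR, adjusted p = 0.660, 0.795 and 0.795). In all 3 the RA libraries lay below all controls, as in 951 of the 13842 tested genes. These 3 were picked by small p, which favours such a separation. Ltbp4 and Itgb8 were low, at or below 2.82 CPM. In the set-adjusted fit, the microfibril gene Fbn1 fell by 1.01 and Thbs1, an activator of the latent ligand, fell by 0.74 on the log2 scale (edgeR, adjusted p = 0.00643 and 0.0167).

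Of 7 related ligands and ligand binders 5 were tested, and all 5 had a log2 fold change below 0, against 52.7% of all tested genes. Their median was -0.52, with 0 calls in the pooled comparison, against 0.0433% of all tested genes. Without DMSO 2 the pooled median was 0.20, and Inhba, Gdf11 and Fstl3 had values above 0, while Inhbb and Fst stayed below 0. All 5 stayed below 0 in the set-adjusted fit when any 1 library was left out, which again adds little to the within-set values. Inhbb, a subunit of activin and inhibin, had 14.4, 16.4 and 14.4 CPM in DMSO and 8.45, 5.58 and 4.98 in RA replicates 1 to 3. All RA libraries lay below all controls, as in 951 of the 13842 tested genes. Its log2 fold change was -1.24 (SE 0.24, by edgeR, adjusted p = 0.295), -1.23 in DESeq2 (adjusted p = 0.00131) and -1.36 in the set-adjusted fit (edgeR, adjusted p = 0.0179). Fst, which encodes the activin binder follistatin, had 13.4, 19.9 and 15.3 CPM in DMSO and 11.3, 9.57 and 8.73 in RA, also without overlap (log2 fold change -0.72, by edgeR, adjusted p = 0.677). Inhba, the other activin subunit gene of the list, had -0.52 (edgeR, adjusted p = 0.836). In the set-adjusted fit Inhbb, Fst and Inhba fell, the last pair by 0.83 and 0.95 on the log2 scale (edgeR, adjusted p = 0.0332 and 0.0277). These 3 calls among 5 genes stand against 0.795% of all tested genes called lower in that fit.

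SMADs and their regulators divided between higher and lower values. The 19 genes, all tested, had a median log2 fold change of -0.04, with 11 below 0 and 8 above. In either fit 0 were called, against 0.0433% of all tested genes in the pooled and 1.54% in the set-adjusted fit. The 3 with the smallest p were Pmepa1, a feedback inhibitor of SMAD signalling, Smurf2, a ubiquitin ligase for the receptor complex, and Usp15, a deubiquitinase of the same complex. Pmepa1 had 23.4, 42.9 and 21.5 CPM in DMSO and 59.0, 52.1 and 45.4 in RA replicates 1 to 3. It stood above the controls in each RA library, as did 790 of the 13842 tested genes. Its log2 fold change was 0.83 (SE 0.28, by edgeR, adjusted p = 0.795) and 0.69 in the set-adjusted fit (edgeR, adjusted p = 0.0848). Smurf2 had 88.9, 127 and 96.1 CPM in DMSO and 83.5, 75.1 and 76.1 in RA, a log2 fold change of -0.41 (edgeR, adjusted p = 0.795), and Usp15 had 0.24 (edgeR, adjusted p = 0.795). The 6 related receptors and coreceptors had a median of -0.10 and 0 calls in either fit, against the same shares of all tested genes. Acvr1b, Acvrl1 and Acvr2b had -0.32, -0.23 and -0.25 (edgeR, adjusted p = 0.795, 0.795 and 0.830).

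**Figure D4:**
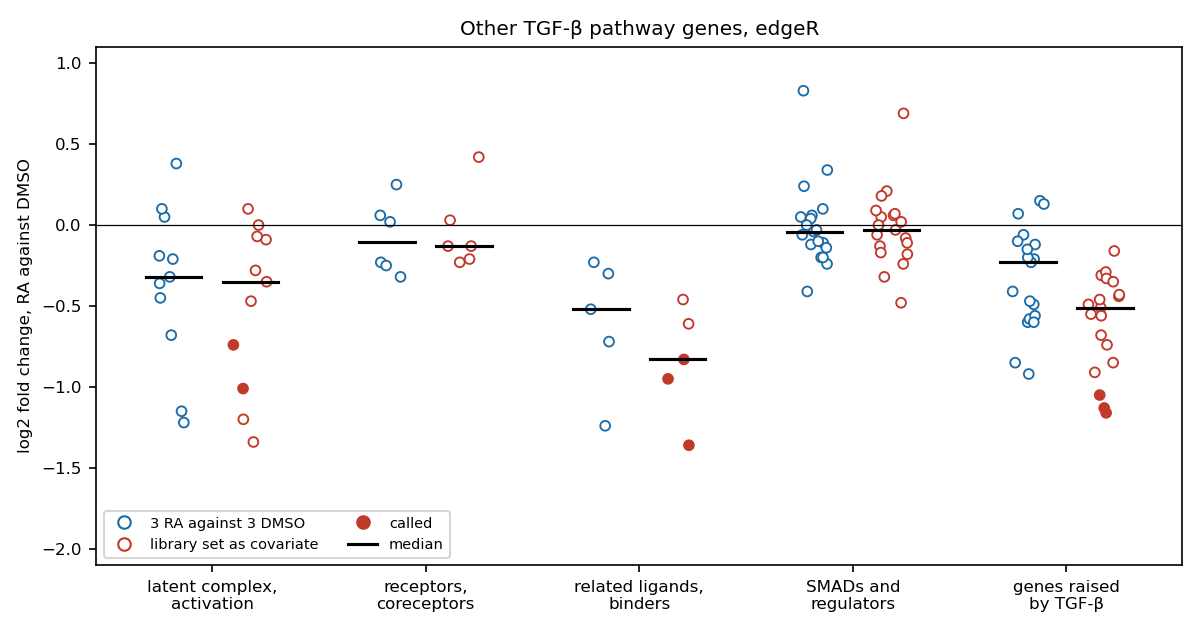
Log2 fold change of RA against DMSO for the 60 tested genes of the 5 pathway lists, pooled (blue) and set-adjusted (red), with filled points for called genes and a line at the median. The median of the genes raised by TGF-β moves from -0.23 to -0.51, while that of the SMADs and regulators stays at -0.04 and -0.03.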

How the data were processed

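RNA of mouse BMSCs was sequenced as 6 libraries, and the deposited tables give, for each library, unnormalised read counts by gene. The submitters' processing notes name Bowtie2 2.2.3 and mm10, and the counting program, annotation and strand setting are not given in the sources used here. Groups and replicate numbers came from the sample titles. Gene positions and exon lengths (union of exons) came from GENCODE M21 (GRCm38).

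Counts were analysed in R 4.3.3 with edgeR 4.0.16: filterByExpr, which kept 13842 of 25722 genes, TMM scaling and the two-sided quasi-likelihood F test of RA against DMSO, with Benjamini-Hochberg adjustment over all tested genes. A gene was called when its adjusted p was under 0.05 and its fold change 1.5 or more. The SE was the absolute log2 fold change over the square root of F, and log2 CPM used a prior count of 2. Library sets were read from the sign of principal component 1, computed on 1000 tested genes of highest variance after removal of the 10 genes and the pathway lists. By rule the text names the 10 genes, of each pathway list the called genes and the 3 with the smallest p, the 3 unlisted genes nearest to the gene of widest range, and Cyp26b1, Rarb and Dhrs3 as a check of the labels, while genes called in the set-adjusted fit only, and Acta2, Gdf11 and Fstl3, were named after their values were seen. Not every called gene is reported here by name. The members and lists were chosen with earlier results of these data known. A count of 0 allows up to 3 counts, 0.162 to 0.204 CPM by library, for counting error only.

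Alternatives were DESeq2 1.42.0, the replicate block, other scalings, filters and thresholds, and leaving out each library. The set-adjusted fit was added after the sets were seen. Endothelial and neutrophil markers were also listed, and their sums did not exceed 17.2 and 2.73 CPM in any library. Of the 5 neutrophil and progenitor markers only 2, S100a8 and S100a9, were in the count tables, and Elane, Mpo and Ly6g were not.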

Additional observations from a re-analysis of the deposited data

How the results depend on the processing

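The median log2 fold change of the 60 pathway genes stayed below 0 in every alternative run, from -0.27 (without DMSO 3) to -0.023 (without DMSO 2) with 1 library left out of the pooled fit, and at -0.30 in the set-adjusted fit, or -0.35 to -0.22 with 1 library left out of that. The calls moved with the model. With the replicate block 0 of the 10 genes and 0 pathway genes were called, and 4 of all genes; no call among the 10 genes changed. Same-numbered libraries had deviation correlations of -0.51, 0.343 and 0.572, so the numbers were not taken to pair the samples. All genes called, 6 in the pooled comparison, were 136 with DESeq2, 20 without a filter, 491 with an unadjusted p under 0.05 and the 1.5-fold threshold kept, 213 in the set-adjusted fit, and 0 to 6 with 1 library left out, or 36 to 420 when the set term was kept. The unadjusted p with that threshold gave 6 pathway genes and DESeq2 gave 1, and the set-adjusted fit 8, or 0 to 11 with 1 library left out. The 10 genes had 2 calls in the set-adjusted fit and 0 to 3 with 1 library left out of that fit. The genes without overlap between treatments, 1 of the 10, were 0 with library size scaling, 1 to 2 with 1 library left out, and 9 when compared within both sets.

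In the set-adjusted fit, the log2 fold changes of Tgfbi and Tgfbr3 were -0.80 and -0.78 and passed the threshold, and those of Tgfb2, Tgfbr1 and Tgfbr2 changed sign to -0.29, 0.15 and 0.055. Over the fits that left out 1 library, with and without the set term, log2 fold changes ran from -0.39 to 0.15 for Ltbp1, from 0.23 to 0.52 for Smad3, from -0.66 to 0.11 for Smad7, from -0.36 to 0.55 for Tgfb2, from -0.84 to -0.27 for Tgfb3, from -1.02 to 0.56 for Tgfbi, from -0.26 to 0.19 for Tgfbr1, from -0.50 to 0.094 for Tgfbr2, from -0.91 to -0.12 for Tgfbr3 and from -0.32 to -0.047 for Tgfb1. Counting only the fits with the set term, Tgfbi ran from -1.02 to -0.56 and Ltbp1 from -0.39 to -0.34. Only Tgfb1, Tgfb3, Tgfbr3 and Smad3 kept their sign in all 19 fits run for each gene. Leaving out DMSO 2 turned the sign of Tgfbi, Ltbp1 and Smad7 in the pooled fit, leaving out RA 3 that of Ltbp1, and leaving out DMSO 1, DMSO 3, RA 1 or RA 2 those of Tgfb2 and Tgfbr1. The cause was not tested.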
